A study of Drosophila melanogaster with 2 samples.

Results

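Mondo, bigmax, crp, Usf, Mitf and SREBP encode the fly's basic helix-loop-helix leucine zipper (bHLH-zip) transcription factors outside the core Myc, Max and Mnt network, and sug and cbt are genes that Mondo is known to switch on when flies eat sugar. These 8 genes were taken by symbol from the dm6 annotation, where all 8 were found, out of 13945 protein-coding genes on the chromosome arms 2L, 2R, 3L, 3R and X and on chromosome 4, together called the 6 arms here. For each gene, every region whose summit (the base of strongest enrichment) fell between 2000 bp upstream of the gene and its end was collected. Together the genes held 28 of the 7451 peaks in the "optimal" list of the series, which was made by a reproducibility threshold. The samples were 2 biological replicates of 1 group, whole adult females of unknown age from a single transgenic strain, labelled Mnt-GFP, whose Mnt protein carries GFP at its C terminus. Chromatin was precipitated with an antibody against GFP and sequenced. The promoter of the transgene is not given in the sources used here, and a whole fly mixes all tissues, so that no peak can be assigned to a cell type. With no second group, nothing was compared between conditions, and the counts below are set beside the same counts over all genes, peaks or sites without a test.

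As background, bHLH-zip proteins bind DNA as dimers, each partner reading one side of a short palindromic site, the E-box, with the letters CANNTG. Mnt pairs with Max, reads CACGTG and represses; Myc pairs with the same partner at the same site and activates. Mondo, the fly counterpart of the sugar-responsive mammalian factors MondoA and ChREBP, pairs with bigmax, the counterpart of Mlx, and works in the fat body and gut. Mitf, the counterpart of MITF and TFEB, drives lysosomal genes; SREBP is released from membranes to drive lipid synthesis; Usf is the counterpart of the mammalian USF proteins; and crp (cropped) is the counterpart of AP-4, whose mammalian form prefers the E-box CAGCTG. The proteins of sug (sugarbabe) and cbt (cabut) are zinc finger factors and not bHLH-zip proteins: the former belongs with the Gli-similar factors, the latter with the Krüppel-like factors.

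Mnt-eGFP was found at 6 of the 8 genes and was strongest inside crp and at cbt. An optimal summit fell in the collected stretch of Mondo, bigmax, crp, SREBP, sug and cbt, against 45.0% of protein-coding genes (6272 of 13945; 95% exact binomial interval 44.1 to 45.8%). The same 6 genes had an optimal summit within 500 bp of a transcription start site (TSS), against 38.1% of protein-coding genes. Usf and Mitf had none. Each replicate's own 7451 strongest regions gave the same 6 genes by both counts. Of the genes, 3 (crp, cbt and Mondo) held a summit among the 500 strongest of the series, which was true of 5.70% of protein-coding genes. Peaks carry a signal, the authors' own enrichment value, which ran from 77.1 to 2444 in the optimal list with a median of 141. Signals of different lists are on different scales, so ranks (1 is the strongest of a list) are used to compare the replicates. The lists hold no read counts, and the depth of the libraries is therefore unknown.

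**Figure D1:**
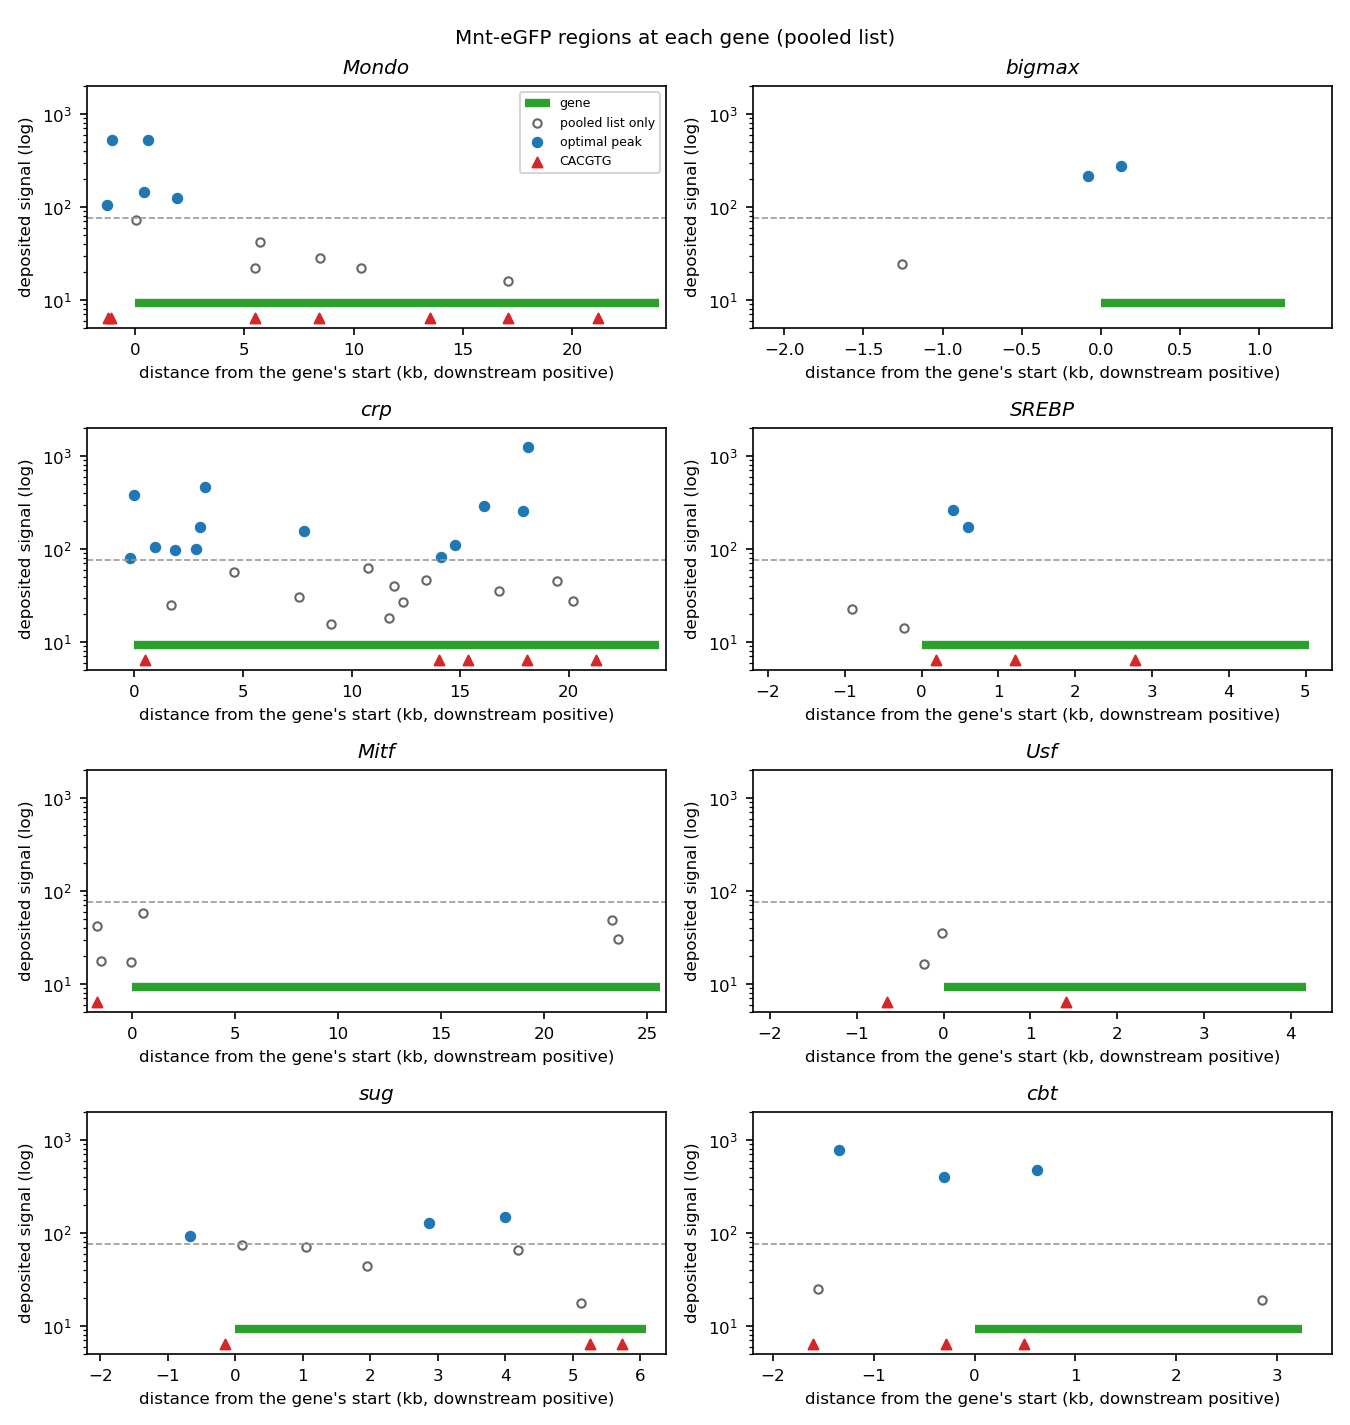
Each panel plots the pooled-list regions of 1 gene at their distance from the gene's start (kb, downstream positive) against the deposited signal (log axis). Filled points are optimal peaks, open points are regions of the pooled list below the optimal threshold (dashed line, 77.1), green bars are the genes and red triangles are CACGTG sites. A reader should see 13 optimal summits spread along crp, 3 strong ones around the start of cbt, and only open points at Mitf and Usf.

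The E-boxes that carried a peak are shown first, because Mnt-Max reads exactly these letters and because each could be placed to the base. Of the 28 optimal summits, 5 had CACGTG within 100 bp (2 at the upstream end of Mondo, 2 inside crp and 1 at cbt), against 8.64% of all optimal summits (644 of 7451). Each line gives the Release 6 (dm6) reference from RefSeq, 5′ to 3′ in the direction of the gene, with CACGTG in capitals.
Mondo, 1075 bp upstream, chr2L:21311112-21311137, minus strand: gccaccaacaCACGTGcagcaacaat
Mondo, 1231 bp upstream, chr2L:21311268-21311293, minus strand: ctcattttcgCACGTGcaggcgactt
crp, 18065 bp downstream, chr2L:16269608-16269687, minus strand: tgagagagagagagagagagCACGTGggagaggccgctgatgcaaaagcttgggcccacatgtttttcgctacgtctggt
crp, 14032 bp downstream, chr2L:16273685-16273710, minus strand: caagtgcaatCACGTGtaagcgcgac
cbt, 280 bp upstream, chr2L:479955-479980, minus strand: ttgtccggtgCACGTGggttgctgag
The middle of the E-box lay 12 bp and 37 bp from the nearest optimal summit at the Mondo pair, 37 bp and 75 bp at the crp pair, and 28 bp at cbt. The longer crp stretch is printed because it holds the strongest summit of all 8 genes, 37 bp from an E-box that sits directly after a run of GA repeats, in which GAGAGA starts at 7 positions.

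Most CACGTG letters in these genes carried no optimal peak. The 8 stretches held 24 sites, of which 5 (20.8%; 95% exact interval 7.13 to 42.2%) had an optimal summit within 100 bp, against 4.07% of the 16428 sites on the 6 arms (669). A pooled-list summit, optimal or weaker, lay within 100 bp of 10 of the 24, against 10.5% of the sites on the arms (1722). Mondo held 5 of these 10. Sites within the stretches of other bound genes were not set apart in the shares on the arms. The following sites, from the same reference and with the same capitals, are examples of the unoccupied ones and not the full set.
Usf, 646 bp upstream, chrX:4549427-4549452, minus strand: gggcaccattCACGTGactccaacag
SREBP, 192 bp downstream, chr3L:19794114-19794139, plus strand: aacaaaagcaCACGTGaactaagaaa
cbt, 491 bp downstream, chr2L:479184-479209, minus strand: aacacgctttCACGTGaacaccgcat
cbt, 1601 bp upstream, chr2L:481276-481301, minus strand: aacaaatgttCACGTGaacatcatga
Mitf, 1721 bp upstream, chr4:1197118-1197143, plus strand: aaaccaaaagCACGTGctctgatatg
Unoccupied here means that no optimal summit lay within 100 bp. The SREBP site lies in the 5′ UTR, 215 bp from the nearest optimal summit, and the cbt site 491 bp downstream lies in the 5′ UTR, 130 bp from one. Within 100 bp of that cbt site, replicate 1 listed a summit of rank 22083 and replicate 2 one of rank 3027. The Mitf site had a weak pooled-list summit 1 bp away, with a signal of 41.6 and rank 12762. That summit lies 284 bp from a start of the gene PIP4K, nearer than to Mitf. The Usf site lies in a coding exon of the gene CG15912.

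Sites with the same flanking bases were counted together. The 3 sites of the form TCACGTGA, the type of E-box through which Mitf-family factors act on lysosomal genes, are those 646 bp upstream of Usf and, at cbt, 491 bp downstream and 1601 bp upstream, and none had an optimal summit within 100 bp. On the 6 arms, 2.12% of the 659 TCACGTGA sites had one (95% exact interval 1.17 to 3.54%). Both sites of the form CCACGTGC, the crp site 18065 bp downstream and the cbt site 280 bp upstream, had one, against 4.11% of 2265 on the arms (3.33 to 5.01%). The form ACACGTGC had the highest share on the arms, 7.28% of 2859 (6.35 to 8.29%). Of its 5 sites in the 8 stretches, 1 was occupied, the Mondo site 1075 bp upstream. These shares read each site on both strands, count every match in the genome alike, and do not allow for whether a site lies in a promoter.

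Mondo, on chromosome 2L from 21286078 to 21310050 on the minus strand, had 5 optimal summits in 3 separately starting regions. All lay from 1268 bp upstream to 1938 bp downstream of the gene's start. The strongest lay in the 5′ UTR at 21309432, 57 bp downstream of an internal Mondo TSS, with a signal of 529 (rank 357). It was rank 564 in replicate 1, where its signal was 301, and rank 174 in replicate 2, where it was 233. No CANNTG lay within 100 bp of it, although the variant CACGCG did, while 69.9% of the other optimal summits had at least 1 CANNTG. The next, at 21311113, was almost as strong, with a signal of 528 (rank 358, and 520 and 215 in the replicates). It has the CACGTG that lies 12 bp away, but it belongs by position to crc, the fly counterpart of the stress-response factor ATF4: it lies in a crc intron, 247 bp from a crc TSS and 1063 bp upstream of Mondo. The fifth summit, at 21311318 with a signal of 105, shared a region with the one at 21311113 and also lay nearer to a crc start. The other summits, at 21309631 and 21308112, had signals of 144 and 126 and lay in the 5′ UTR and an intron of Mondo. So 3 of the 5 summits had a Mondo start as their nearest protein-coding TSS, and none of these 3 had CACGTG within 100 bp. A pooled-list summit in the 5′ UTR, 54 bp downstream of the gene's start, fell just below the optimal threshold. Its signal was 72.5 (rank 7915, and 7035 and 7287 in the replicates). The part of the gene beyond 1938 bp held 5 pooled-list regions below the optimal threshold, of which the strongest had a signal of 41.9, 240 bp upstream of the most internal Mondo TSS. Replicate 2 listed it at rank 5101, and the nearest summit of replicate 1, 287 bp away, ranked 24125.

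Its partner bigmax (chromosome 3R, 27287366 to 27288526, minus strand) had 2 optimal summits on either side of its single TSS. At 27288398, in a coding exon 128 bp downstream, the signal was 275 (rank 1226), and at 27288605, 79 bp upstream in intergenic sequence, it was 217 (rank 1882). Replicate 2 separated them, with ranks of 639 and 2929 and summits 8 bp and 29 bp from the pooled ones. In replicate 1 the nearest summit to both was the same one, 6 bp downstream of the TSS, at rank 1460 (signal 176), and a second summit of that replicate lay 193 bp upstream, at rank 4166 (signal 89.3), nearest to the start of Hmu. The stretch of bigmax holds no CACGTG. Both summits are also within 500 bp of a start of the divergent gene Hmu, which encodes the membrane mucin hemomucin, so the peak pair cannot be assigned to 1 of the genes.

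The crp gene, on chromosome 2L from 16263556 to 16287730 on the minus strand, had the most summits and the strongest one. It held 13 optimal summits in 9 separately starting regions, a number reached by 13 of 13945 protein-coding genes (0.0932%), crp included. Length goes with such counts: 835 protein-coding genes had a stretch at least as long as that of crp, all 13 of the genes with as many summits were among them, and 377 of the 835 (45.1%) had no optimal summit at all. The strongest crp summit, at 16269628, had a signal of 1238 and rank 37 of 7451. It stood at rank 42 in replicate 1 and 25 in replicate 2. It lies in an intron 18102 bp downstream of the only crp TSS, 7487 bp from the nearest protein-coding start of any gene, that of CG4935, and carries CACGTG and a CATGTG. A shoulder in the same region, at 16269833, had a signal of 257.

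Nearer its start, crp had a second group of peaks. At 16284486, in an intron 3244 bp downstream of the TSS, the signal was 462 (rank 469, and 530 and 405 in the replicates), with shoulders of 173 and 99.6 in the same region. At the TSS itself, 15 bp upstream, it was 378 (rank 687, and 716 and 637 in the replicates), and this promoter summit had no CANNTG within 100 bp. Farther in, at 16271616, the signal was 292, with 1 CAGCTG, and at 16272958 it was 111, with CAGCTG at 3 places. The remaining summits had signals from 79.6 to 156. The lowest of them, 220 bp upstream of the TSS, stood just inside the optimal list, at rank 7223, within 500 bp of a start of the neighbouring gene pkaap. In all, CAGCTG lay within 100 bp of 4 of the 13 crp summits and GAGAGA, the core of the GAGA element, of 7. Among the optimal summits outside the genes studied here, the shares were 14.4% and 14.2%. Summits that share a region are close neighbours and are not independent, although the 100 bp windows of the crp summits do not overlap.

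SREBP, on chromosome 3L from 19793935 to 19798979 on the plus strand, had a pair of intronic optimal summits, 407 bp and 606 bp downstream of its TSS, with signals of 266 (rank 1307) and 174 (rank 2723). The replicates placed the protein differently. In replicate 1 the strongest region lay 417 bp downstream of the TSS, with a signal of 213 (rank 1051), and the only upstream summit was 958 bp away and ranked 12253. In replicate 2 the strongest, with a signal of 65.7 (rank 2270), lay 263 bp upstream, followed by summits 524 bp downstream (62.9, rank 2435) and 55 bp upstream (53.5, rank 3152). The pooled list held a weak region there, with a signal of 14.0 and rank 29182, whose summit lies within 500 bp of starts of CG42637 and Gyc76C. The near-upstream binding was thus listed in replicate 2 and not in replicate 1, while intronic regions were listed in both.

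Mitf and Usf had only weak regions. For Mitf, on chromosome 4 from 1198852 to 1224467 on the plus strand, the pooled list held 6 regions with signals from 17.4 to 57.7, all below the lowest optimal signal of 77.1. The strongest, in an intron 509 bp downstream of the nearest Mitf TSS, ranked 9767, and its nearest counterparts ranked 8959 in replicate 1 and 11524 in replicate 2. Replicate 1 listed 7 Mitf regions and replicate 2 listed 2. The small chromosome 4 held 31 optimal summits, and 26.3% of its 80 protein-coding genes had one within 500 bp of a TSS. Usf, on the X chromosome from 4544617 to 4548794 on the minus strand, had 2 pooled-list regions, 19 bp and 223 bp upstream of its TSS, with signals of 35.2 (rank 14479) and 16.3 (rank 25793). Replicate 1 placed its strongest Usf region 44 bp upstream of the TSS, at rank 11180, and replicate 2 listed none. A start of CG15912 lies within 500 bp of both summits. Each of these lists runs to 30000 regions and includes background, so the values do not separate weak binding from background.

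**Figure D2:**
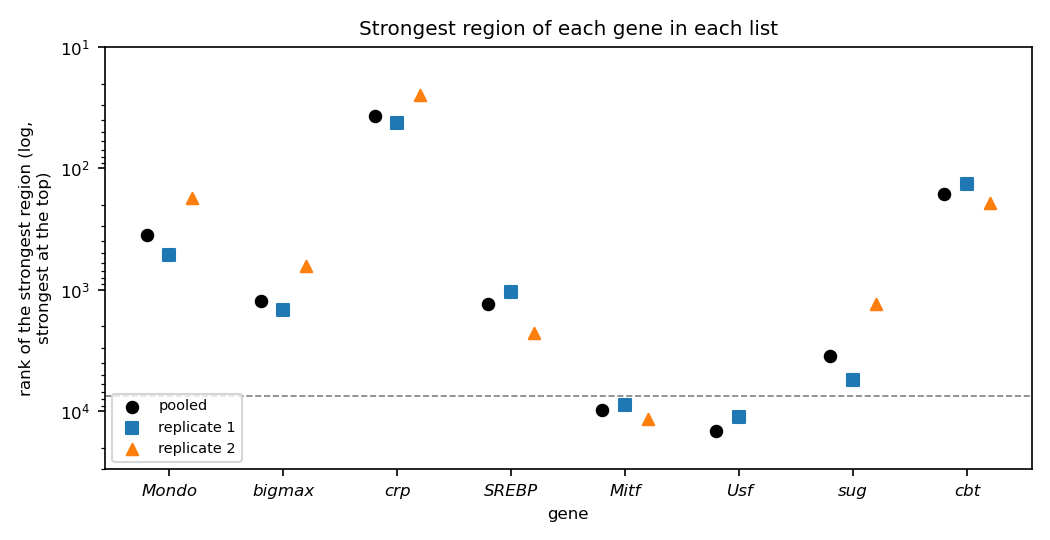
The rank of the strongest region of each gene (log axis, strongest at the top) in the pooled list and in each replicate; the dashed line is the size of the optimal list, 7451. In each list the points of crp lie highest (37, 42 and 25) and those of cbt next (162, 135) except in replicate 2, where Mondo (174) is above cbt (194); Mitf and Usf lie below the line, and Usf has no point for replicate 2.

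Of the Mondo targets, cbt was among the strongly occupied genes of the series and sug was not. The cbt gene (chromosome 2L, 476446 to 479688, minus strand) lies inside an intron of ush, a cofactor gene of GATA factors, which runs on the other strand. Its 3 optimal summits all had signals above 400. The strongest, 1348 bp upstream at 481036, had a signal of 781 (rank 162) and ranked 135 in replicate 1 and 220 in replicate 2. A summit in the 5′ UTR, 621 bp downstream of the TSS, had a signal of 473 (rank 448, and 524 in replicate 1). In replicate 2 the nearest summit to it, 98 bp away, ranked only 3027, but the strongest region overlapping the peak ranked 194. The third, 308 bp upstream at 479996, had a signal of 401 (rank 625, and 556 and 770 in the replicates), and is the one with CACGTG.

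The strongest cbt summit had no E-box of any kind within 100 bp, and the bases around it are printed as the contrast to the E-box sites above. The line gives the intronic ush sequence centred on that summit, in the direction of cbt, all in lower case because no E-box was found in it.
cbt, strongest summit, chr2L:480976-481095, minus strand: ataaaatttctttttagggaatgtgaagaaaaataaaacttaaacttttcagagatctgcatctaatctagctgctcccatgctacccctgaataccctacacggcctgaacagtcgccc
The nearest CACGTG in the cbt stretch lay 253 bp from this summit, at the TCACGTGA site 1601 bp upstream. Within 100 bp of that site, the pooled list had a weak summit with a signal of 25.3 (rank 18452), and replicate 2 had one with a signal of 23.5 (rank 8298).

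Over the 28 summits, CATGTG, a variant E-box, lay within 100 bp of 8 (28.6%, against 14.9% of the other 7423 optimal summits). Of these 8, crp held 5, sug 2 and Mondo 1. CAGCTG lay within 100 bp of 6 (21.4%, against 14.4%), of which 4 were in crp, 1 at Mondo and 1 at cbt. Any CANNTG lay within 100 bp of 21 (75%, against 69.9%). GAGAGA was present at 10 (35.7%, against 14.2%), of which 7 were in crp, 2 at cbt and 1 at Mondo. TATCGATA, the site of the promoter factor Dref, was present at 1 (3.57%, against 6.20%) and the core promoter element GGTCACAC at none, against 5.46%. A partial pattern for the carbohydrate response element of ChREBP was searched: CACG, 7 free bases and CACG again on the same strand. It was found at none of the 28, nor was the sterol regulatory element TCACNCCAC, and both were rare at the others (0.472% and 0.539%). Other forms of the carbohydrate response element, beyond the strict pattern below, were not searched. In the single-replicate lists, the partial pattern lay within 100 bp of a cbt summit of rank 22083 in replicate 1. It also lay within 100 bp of one of rank 3027 in replicate 2. The strict pattern, with CACGTG on either side of 5 bases, was found at none of the 28 and at 1 other. The variant CACGCG was present at 2 summits (7.14%, against 10.04%), and 2 also held CATGCG (7.14%, against 7.13%). All were searched on both strands. Every form that fits CANNTG is also in its count.

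The sug gene lies on chromosome 2R, from 12924567 to 12930644 on the plus strand. Its strongest summit was the weakest among the 6 bound genes, and its 3 optimal summits had signals of 148 (rank 3481), 128 (rank 4176) and 93.2 (rank 6111). The first lies in an intron 300 bp upstream of the internal sug TSS and the next 1419 bp upstream of that TSS. The third lies 672 bp upstream of the gene and 9 bp from the start of CG13319, which is its nearest protein-coding gene. Their ranks differed between replicates: the first stood at 6787 and 1359, the second at 7182 and 1310, and the third at 5542 and 11211. Regions with signals of 73.9 and 71.3, 98 bp and 1042 bp downstream of the gene's start, fell just below the optimal threshold. The stretch holds 3 CACGTG sites, and none had an optimal summit within 100 bp.

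Across the 28 summits, all had an overlapping region in both replicates, and 25 had one among the 7451 strongest of each by the nearest summit. The exceptions were the crp shoulder of 99.6 (rank 11584 in replicate 1), the crp summit of 82.4 (8617 in replicate 1) and the third sug summit (11211 in replicate 2). The optimal list was made by a reproducibility threshold and equals the 7451 strongest pooled regions. The replicate lists run to 30000 regions with background, so such overlap was largely built in. The same shares were not counted over all 7451 optimal peaks. Some summits also shared their nearest replicate summit, as both of bigmax did in replicate 1. By place, 16 summits lay in introns of the gene they were counted for, 8 upstream, 3 in 5′ UTRs and 1 in a coding exon, and 9 were within 500 bp of a start of that gene. Most of the intronic summits were those of crp, and places were not counted over all optimal peaks.

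**Figure D3:**
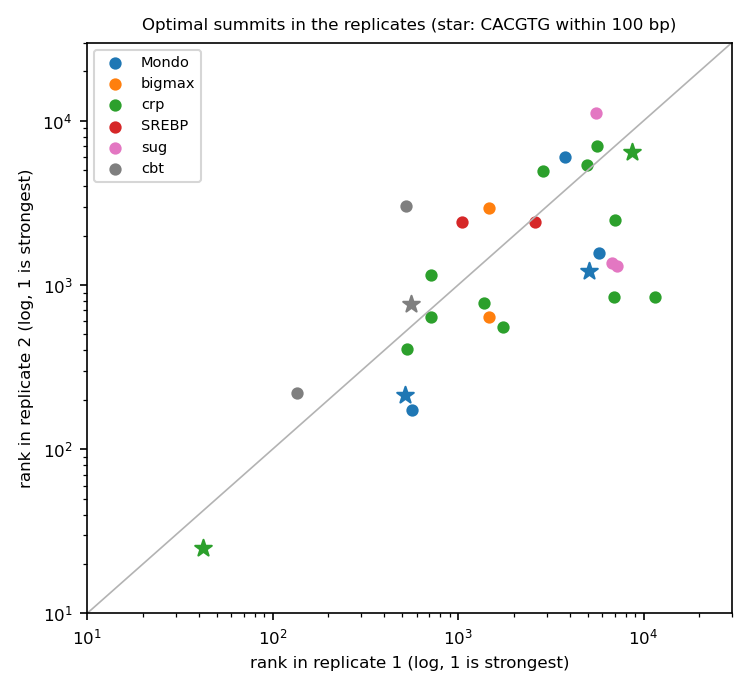
Each point is 1 of the 28 optimal summits, at the rank of the nearest overlapping region in replicate 1 (x) and replicate 2 (y), both log axes; colours mark the genes, stars summits with CACGTG within 100 bp, and the line equal ranks. The strongest crp summit sits at the lower left (42 and 25), and the spread about the line is widest among summits beyond rank 1000.

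Genes that these factors are known to act with, or that resemble them, were counted in 5 lists by an optimal summit within 500 bp of a TSS. In 4 lists the bound share was 76.2 to 85.7%, and in 1 it was 18.2%, against 38.1% of all protein-coding genes. The lists were drawn up with earlier results of these data known, and they share members with each other, so the counts describe only these genes. Among sugar-responsive genes downstream of Mondo, 16 of 21 had a summit, and the median of their highest signals was 167 (171 over all bound protein-coding genes). They were led by the citrate lyase gene ATPCL (349), the glycerol phosphate dehydrogenase gene Gpdh1 (303), the fatty acid synthase gene FASN1 (253) and the acetyl-CoA carboxylase gene ACC (214). The amylase genes Amy-d and Amy-p had none. The strongest summit of each of the 16 had no CACGTG within 100 bp. For scale, 8.64% of all optimal summits had one. The share for the strongest summits of all bound genes was not counted, here or for the lists below.

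In the SREBP list, 12 of 14 genes had a summit, with a median of 277. Pect (430) and Pcyt1 (378), enzymes of phospholipid synthesis, Lpin (426), a phosphatidate phosphatase, and Acsl (421), an acyl-CoA synthetase, were highest, and the Acsl summit had CACGTG. S1P and S2P, the proteases that release SREBP from membranes, had none. For Mitf, 11 of 14 regulators and lysosomal targets had a summit, the V-ATPase genes Vha16-1 (543), Vha55 (414), Vha44 (304) and VhaSFD (220) leading, with a median of 166, and Lamp1 and RagA-B were among those without one. CACGTG lay at the summits of Vha55 and Vha44. Of 16 other bHLH factor genes, 13 had a summit, with a median of 177 and with Mnt (468), emc (460), an inhibitor of bHLH dimers, Max (403) and Myc (200) highest. Among these, Mnt and Max were the ones with CACGTG. HLH4C and Hey were among those with no summit. The zinc finger relatives of sug and cbt differed: 2 of 11 had a summit, ci (78.8) and btd (77.9), both close to the lowest optimal signal and the latter with CACGTG, and Klf15 and Kr were among those with none.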

How the data were processed

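The authors deposited 8 peak lists on dm6 and dm3, per the labels, and the 4 on dm6 were used; dm3 lists were not used because no dm3 annotation was at hand. According to the authors' deposited listing of files, the replicate lists were made from 1 alignment each and a further file, the pooled list from both alignments and the further file, and the optimal list from these by an irreproducible discovery rate threshold. For the peak caller and aligner, versions included, the sources used here name nothing. Each region's signal is the value deposited by the authors. The −log10 q-value deposited by the authors is capped (4.22 for all 7451 optimal peaks), so regions were ranked by signal. The optimal list equals the 7451 strongest pooled regions.

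Summits (start plus offset, printed 1-based) were set against Ensembl release 115 genes without transposable elements, and motifs were searched within 100 bp on both strands of the RefSeq Release 6 sequence. A related gene not found by symbol was looked up among older RefSeq names: 2 were renamed, and Tkt was not found. Related genes named are up to 4 with the highest signal and up to 2 without a summit in alphabetical order. The members and lists were chosen with earlier results of these data known, so no test was made on them. Intervals are exact (Clopper-Pearson), at the 95% level, and cover counting error only. The counting and the motif search were tested on simulated data. No protein sequences were used. Python 3.11.15, numpy 2.4.6, pandas 2.3.3, scipy 1.17.1 and matplotlib 3.10.9 were used.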

Additional observations from a re-analysis of the deposited data

How the results depend on the processing

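The count of 6 genes with a summit stayed at 6 under every alternative tried for it. Within 250 bp of a TSS the count of bound genes fell from 6 to 3, because the nearest summits of SREBP, sug and cbt lie 300 bp or more from a start. With the stronger 3726 optimal peaks, 18 summits remained in place of 28, and the shares of protein-coding genes were 29.5% for the whole stretch and 23.8% within 500 bp of a TSS. The 5 summits with CACGTG became 3 with 1000 bp or 500 bp upstream (both Mondo summits drop out), 3 with the stronger peaks and 8 with windows of 250 bp. When only summits whose nearest protein-coding TSS was the gene's own were kept, an alternative added after the data were seen, 1 was left (at cbt), and the strongest crp rank moved from 37 to 469. With 1000 bp or 500 bp upstream, cbt's strongest rank moved from 162 to 448.

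Each replicate alone gave 6 bound genes by both counts, 26 to 35 summits, 4 to 6 with CACGTG, and 40.9 to 45.8% and 33.2 to 39.0% of protein-coding genes. The strongest ranks ran from 174 to 520 for Mondo, 639 to 1460 for bigmax, 25 to 42 for crp, 1051 to 2270 for SREBP, 1310 to 5542 for sug, 135 to 194 for cbt and 8959 to 11524 for Mitf, and Usf stood at 11180 in replicate 1. No paired analysis was possible because there is only 1 group. Depth is unknown, so the lack of an optimal peak at Usf and Mitf is not shown to be a lack of binding.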
